A study of Homo sapiens with 6 samples.

Results

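The replication-dependent histone genes are the multicopy genes that supply H1, H2A, H2B, H3 and H4 proteins to newly replicated DNA. They were taken as the autosomal protein-coding genes of the GENCODE annotation with the symbols H1-1 to H1-6 or with H2AC, H2BC, H3C or H4C followed by a number. This rule gave 69 of 18765 autosomal protein-coding genes, of which 6 encode H1, 17 H2A, 18 H2B, 13 H3 and 15 H4. A promoter region was an accessible region that overlapped 2 kb on either side of a transcription start site (TSS), and 67 of the 69 genes had at least one. Genes that stand side by side share regions, so the 67 genes had 58 promoter regions, of 20094 promoter regions of protein-coding genes and 108542 regions in all. No region lay near H1-6 and H4C7.

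Accessibility was measured by ATAC-seq, in which a transposase inserts adapters into open DNA, in EndoC-βH3 cells, a single human beta-like line of fetal origin whose immortalising transgenes, hTERT and SV40 large T antigen, can be excised by an inducible Cre recombinase. The senescent group, with 3 libraries, had received 4-hydroxytamoxifen (4-OHT) for 3 weeks, and the non-senescent control group, also with 3 libraries, had not, so effects of the drug, of the excision and of the arrest that follows cannot be told apart. Both groups carry the Cre construct, each library was made from 100000 cells, and the labels do not say whether the libraries came from separate cultures. The authors' deposited table gives each region a mean signal, which is the average of its normalised read counts over the 6 libraries, and a log2 fold change with the standard error (SE) of that change. Values of single libraries are not part of it.

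A positive fold change stands here for more accessibility in senescent cells. The table does not name the numerator, and the direction follows the way the study labels its changes and the fall at the promoter of the proliferation gene MKI67 (log2 fold change -0.53, SE 0.097, and -1.35, SE 0.30, at its pair of regions), so the direction of the histone genes is not independent of that choice. All 7 beta cell marker genes looked up, INS and PDX1 among them, had a promoter region, with mean signals from 405 to 7894, whereas the exocrine gene PRSS1 had none. The promoters of the other islet, duct and fibroblast markers had mean signals between 53.4 and 1059, with 2101 at the acinar gene CPA1. Some of these markers moved in the same comparison. The insulin gene INS was called higher (1.11, SE 0.037, adjusted p = 5.2e-189), and of the other 6 beta cell markers SLC30A8, a zinc transporter gene, was higher by adjusted p-value alone (0.28, SE 0.088). Of 5 markers of other islet cells, SST, the somatostatin gene of delta cells (-1.08, SE 0.16, adjusted p = 3.9e-10), and HHEX, a transcription factor gene of the same cells (-0.87, SE 0.092, adjusted p = 1.4e-19), were called lower, falls of about the size of the largest at histone genes with a high signal. CPA1 (-0.19) and the duct gene KRT19 (-0.37) were lower by adjusted p-value alone, and the fibroblast gene COL1A1 (-0.24, adjusted p = 0.23) and the remaining markers did not pass. Promoter accessibility alone does not show which cell types were present, and the part of these shifts in the histone gene result was not tested.

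Histone genes of this kind are transcribed in S phase, when cyclin E and CDK2 phosphorylate NPAT, the coactivator of the histone locus body that assembles on them. They have no introns, their mRNAs end in a stem-loop in place of a poly(A) tail, and that stem-loop is bound by SLBP. Most lie in a large cluster on the short arm of chromosome 6 and a smaller one on chromosome 1, where H2A and H2B genes are often arranged head to head around a common promoter.

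The following sequences show the promoters at the extremes of the results below. The first pair of lines gives the DNA between the start sites of the H2A/H2B gene pairs with the smallest and the largest change, read on the plus strand of hg38 (chr6:26216689-26216920 and chr6:27132796-27133042). The second pair gives the 250 bases before the start of H1-3 and H1-2, the most changed promoters that hold a single start site at a mean signal above 300, on their own strand, from the RefSeq promoter table (GRCh38.p14). Capitals mark the octamer ATTTGCAT, the CCAAT box (CCAAT), the TATA box (TATAAA), 4 forms of the E2F site (TTTGGCGC, TTTCCCGC, TTTGCCGC and TTTCGCGC) and, in the H1 genes, the H1 box (AAACACA). Matches in either orientation are marked, except for the TATA box in the H1 genes, which was sought on the sense strand.
H2BC8/H2AC8: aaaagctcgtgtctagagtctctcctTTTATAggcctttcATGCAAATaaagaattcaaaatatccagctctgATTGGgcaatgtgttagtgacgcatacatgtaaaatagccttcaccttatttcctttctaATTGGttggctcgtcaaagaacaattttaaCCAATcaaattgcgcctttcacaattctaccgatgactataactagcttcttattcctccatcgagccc
H2BC11/H2AC11: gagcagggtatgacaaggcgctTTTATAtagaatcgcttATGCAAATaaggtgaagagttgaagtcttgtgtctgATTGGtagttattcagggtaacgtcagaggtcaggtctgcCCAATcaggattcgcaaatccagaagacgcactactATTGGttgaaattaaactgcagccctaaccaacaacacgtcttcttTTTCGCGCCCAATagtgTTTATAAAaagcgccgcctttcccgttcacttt
H1-3: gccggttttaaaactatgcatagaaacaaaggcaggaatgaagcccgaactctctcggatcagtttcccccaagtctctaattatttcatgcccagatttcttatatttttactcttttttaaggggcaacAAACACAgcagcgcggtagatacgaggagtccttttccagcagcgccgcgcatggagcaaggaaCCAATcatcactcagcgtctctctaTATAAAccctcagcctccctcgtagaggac
H1-2: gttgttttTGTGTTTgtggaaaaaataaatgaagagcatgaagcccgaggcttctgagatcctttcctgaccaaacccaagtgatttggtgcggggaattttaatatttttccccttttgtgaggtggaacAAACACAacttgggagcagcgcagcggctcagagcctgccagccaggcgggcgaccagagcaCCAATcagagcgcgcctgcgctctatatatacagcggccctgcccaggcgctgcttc

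Both H2A/H2B spacers held the octamer, on which the factor POU2F1 (OCT1) acts in H2B genes, and at least 3 CCAAT boxes, and in the second spacer TATAAA occurred in both orientations on overlapping bases. The 11 head-to-head H2A/H2B pairs had 193 to 250 bases between their start sites, with a median of 239. An octamer was found in 8 of the 11, TATAAA on either strand in 8, and CCAAT in all 11, between 3 and 6 times. The RefSeq table held the promoters of 64 of the 69 genes. In their upstream 250 bases the octamer occurred in 14 of 18 H2B and 11 of 16 H2A genes and in no H1, H3 or H4 gene, against 1.63% of all 35116 promoters of the table. Head-to-head partners share most of these bases, so the same match can be counted for both genes and the counts are not of separate sites. CCAAT occurred in 54 of 64 genes against 32.0% of all promoters, and was found in 3 of 13 H4 genes and in every matched gene of the other families. The sense-strand TATAAA occurred in 37 genes against 6.80%, and an E2F form in 12 genes against 2.79%. The H1 box, which was looked for only after the sequences had been seen, occurred in all 6 H1 genes, against 4.82% of all promoters.

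Accessibility of histone gene promoters was lower in senescent cells across nearly the whole set. The median log2 fold change of the 58 regions was -0.41, with a range from -2.87 to 0.68, and 56 of the 58 values were below 0. All counts of regions here and below include 4 near-identical copies on chromosome 1, described below, which form pairs that are each a single measurement. A Wald test at an adjusted p-value under 0.05 found lower accessibility in 47 regions (81.0%) and higher accessibility in 0. Among all promoter regions, 34.7% were lower and 10.2% were higher by the same rule, and of all accessible regions 21.4% were lower. When a fold change over 1.5 was also required, 12 of the 58 regions were called lower (20.7%) and 0 higher, against 9.04% and 3.56% of all promoter regions and 10.3% and 15.4% of all regions. Falls were thus widespread, but most of them were smaller than 1.5-fold, and a Wald test of whether the fold itself exceeds 1.5 left 3 regions lower.

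Promoters as a whole had a median log2 fold change of -0.13, so part of each value was common to promoters. Each histone gene region was therefore set beside up to 200 other promoter regions nearest to it in mean signal. The median of these neighbours, taken over the 58 regions, was -0.12, and the histone gene regions lay below it by a median of 0.26 on the log2 scale. In all, 54 of the 58 were below the median of their neighbours and 22 were in the lowest 10% of them. The 95% interval lay wholly below the neighbours' median for 39 regions and wholly above it for 1, the weak region near the testis genes H2AC1 and H2BC1. In the neighbours, on average 6.85% of regions were called lower and 34.4% were lower by adjusted p-value alone.

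**Figure D1:**
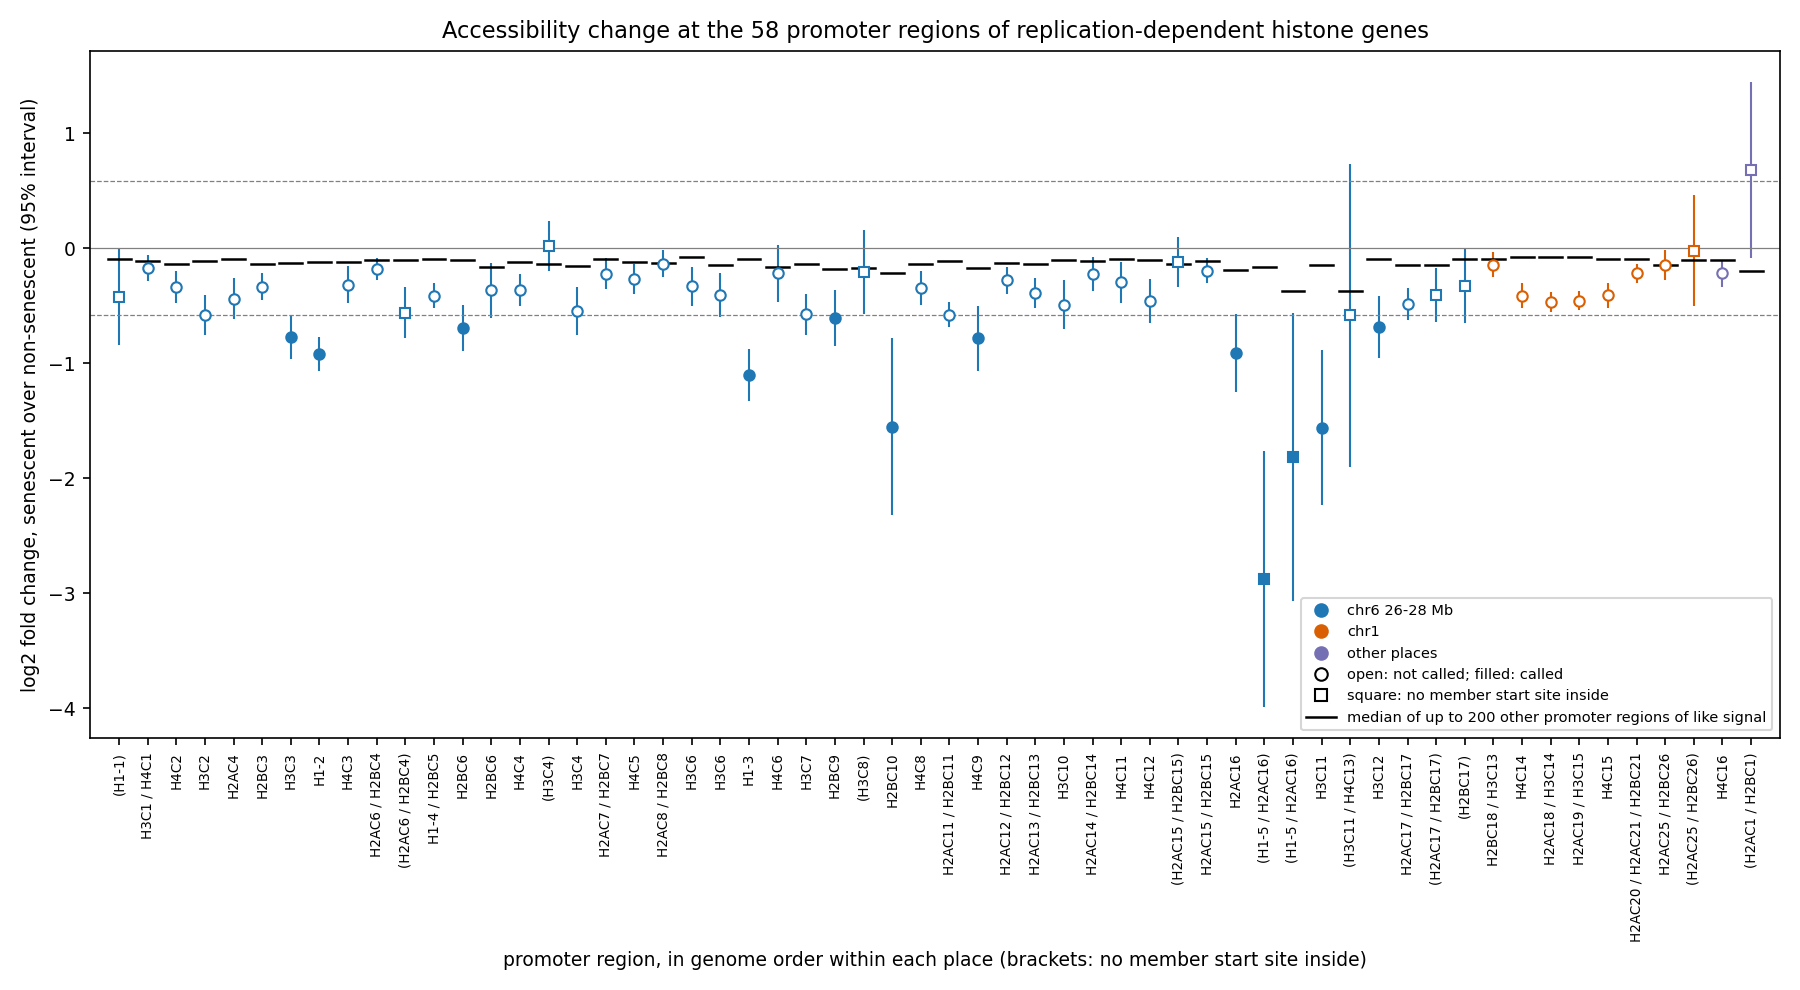
The log2 fold change (senescent over non-senescent, with its 95% interval) of each of the 58 promoter regions in genome order, coloured by place, with filled points for called regions, squares for regions without a member start site, dashed lines at the fold limit of 1.5 and black bars for the median of up to 200 other promoters of like signal. Of the points, 56 lie below 0 and 54 lie below their bar, and all 12 filled points are on chromosome 6.

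The result was clearest in the 46 regions that contain a histone gene start site. All 46 had a negative log2 fold change, from -1.56 to -0.14, all 46 were below the median of their neighbours in signal, and 43 passed the adjusted p-value. Of those neighbours, on average 37.3% were lower by adjusted p-value. The 46 regions held the start sites of 61 of the 69 genes, and 45 genes lay wholly inside 1 region, from start to end. The exceptions were H2AC8/H2BC8 (adjusted p = 0.0503), H2AC25/H2BC26 (adjusted p = 0.066) and H4C6 (adjusted p = 0.153), whose values were also negative. The 12 regions without a start site were more mixed, with a median of -0.37, 4 that passed the adjusted p-value and a range from -2.87 to 0.68.

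The H1 genes encode the linker histones that bind the DNA between nucleosomes, and 2 of them, H1-2 and H1-3, had the largest falls among histone gene regions with a mean signal above 300. The region of H1-2 (chr6:26054821-26056986), which covers the gene, had a mean signal of 834, and its accessibility fell by 47.3% (-0.92 on the log2 scale, SE 0.075, adjusted p = 1.5e-32). The region of H1-3 (chr6:26233690-26235101) had a mean signal of 326 and fell by 53.5% (-1.11, SE 0.11, adjusted p = 3.5e-20). Both were below every one of their 200 neighbours in signal. H1-4 shares a region with H2BC5 at a mean signal of 2103, where the log2 fold change was -0.41 (SE 0.055). These are the sequences with the H1 box and CCAAT shown above for H1-2 and H1-3.

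No accessible region contained the start of the other H1 genes. A small region in the body of H1-5, with a mean signal of only 10.4, was called lower (log2 fold change -1.82, SE 0.64, adjusted p = 0.013), as was another between H1-5 and H2AC16, which had the lowest value of the set (-2.87, SE 0.57) at a mean signal of 18.1. The strongest region within 2 kb of H1-5 was that of H2AC16. H1-1 had a region beside its start at -0.43 (SE 0.21), which did not pass the test (adjusted p = 0.095). H1-6, the testis form, was without a region.

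Among core histone genes with a region to themselves, H2B had 5 regions, all of which passed the adjusted p-value, with a median log2 fold change of -0.61. Of their neighbours in signal, on average 32.8% were lower by adjusted p-value and 9.2% were called lower. H2BC10 fell by 65.9% (log2 fold change -1.55, SE 0.39, adjusted p = 0.00039), at a mean signal of just 26.5. H2BC6 has a pair of regions around separate start sites. The stronger, with a mean signal of 380, was called lower (-0.69, SE 0.10, adjusted p = 1.5e-10), and the weaker had a value of -0.37 (SE 0.12, adjusted p = 0.0092). The region of H2BC9 was called lower at -0.61 (SE 0.13), and that of H2BC3, the most accessible of the 5 with a mean signal of 1251, fell by less (-0.33, SE 0.062).

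H2A genes seldom had a region of their own. H2AC16 (chr6:27864943-27865808) was called lower at -0.91 (SE 0.17, adjusted p = 1.4e-06) at a mean signal of 132.5. H2AC4 had a larger signal of 569.8 and a value of -0.44 (SE 0.091), which passed the adjusted p-value without reaching the fold limit. The start sites of the other H2A genes with an accessible start lay in regions shared with H2B or H3 genes.

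The 9 regions with an H3 start site alone all passed the adjusted p-value, with a median log2 fold change of -0.58 and a range from -1.56 to -0.33. Of their neighbours in signal, on average 31.6% were lower by adjusted p-value and 8.94% were called lower. H3C11 fell most (-1.56, SE 0.34, adjusted p = 3.6e-05), at a mean signal of 38.2. H3C3 (-0.77, SE 0.097) and H3C12 (-0.68, SE 0.14) were also called lower. H3C2 (-0.58, SE 0.089) and H3C7 (-0.58, SE 0.089) lay just inside the fold limit, which is 0.58 on the log2 scale, and so were not called. H3C4, H3C6 and H3C10 were between -0.55 and -0.33. H3C8 had no region over its start. Its strongest region within 2 kb, at a mean signal of 103, gave a value of -0.21 (SE 0.19, adjusted p = 0.39). A nearer but weaker region was that of H2BC10, which was called lower (-1.55, SE 0.39) at a mean signal of 26.5.

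The H4 genes had the smallest median change among genes with a promoter to themselves. Of the 12 regions with an H4 start site alone, 11 passed the adjusted p-value, the median log2 fold change was -0.34 and 11 of the values lay between -0.46 and -0.22. Among neighbours in signal, on average 37.75% were lower by adjusted p-value and 4.625% were called lower. Only H4C9 was called lower (chr6:27139150-27140127, -0.79, SE 0.14, adjusted p = 5.5e-07), at a mean signal of 183. The lowest of the others was H4C12 (-0.46, SE 0.096) and the highest were H4C6 (-0.22, SE 0.13, adjusted p = 0.15) and H4C16 (-0.22, SE 0.061). H4C13 had no accessible start. The nearest region, inside the gene, had a mean signal of 8.35 and a value of -0.59 with an SE of 0.67, and its strongest region within 2 kb was that of H3C11.

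Shared promoters had smaller changes than promoters with 1 start site. The 30 regions with 1 histone gene start site had a median log2 fold change of -0.45 and 10 of them were called lower, whereas the 16 regions with at least 2 had a median of -0.22 and none was called, although 14 of them passed the adjusted p-value. The shared regions were also the stronger ones, with a median mean signal of 1796 against 497.5. Relative to neighbours of like signal, the median was -0.35 for single and -0.13 for shared regions. In those neighbours, on average 7.5% of regions were called lower for single and 0.91% for shared regions. The absence of calls among shared regions is therefore near the share at their signal. By adjusted p-value alone, on average 42.2% of the neighbours of shared regions were lower. No test was made of this difference, since regions are not replicates.

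In the 11 head-to-head H2A/H2B pairs, 9 passed the adjusted p-value, against on average 43.7% of their neighbours in signal. Their median log2 fold change was -0.22. H2AC11/H2BC11, whose spacer is printed above, stood at -0.58 (SE 0.055, adjusted p = 9.4e-24, 95% interval -0.69 to -0.47), just inside the fold limit, with a mean signal of 1874. H2AC8/H2BC8, at a mean signal of 1418, stood at -0.14 (SE 0.060, 95% interval -0.25 to -0.02). Both were chosen as the extremes of the 11 pairs, so their intervals are no test of a difference between pairs. H2AC17/H2BC17 (-0.49, SE 0.071) and H2AC13/H2BC13 (-0.39, SE 0.067) followed, and the other 7 pairs lay between -0.28 and -0.15. Of the other shared regions, H3C1/H4C1, with a mean signal of 1863, had a value of -0.17 (SE 0.058, adjusted p = 0.0096).

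**Figure D2:**
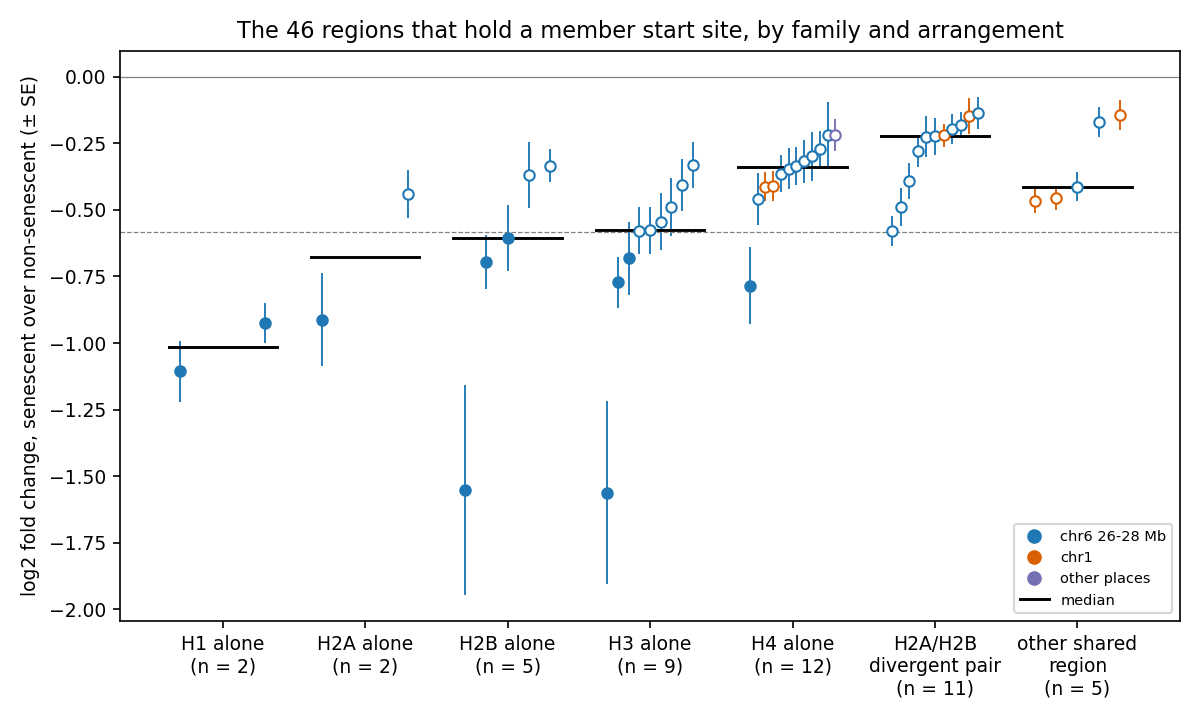
The log2 fold change (± SE) of the 46 regions that hold a histone gene start site, grouped by the family of a lone start site or by shared arrangement, with filled points for called regions and bars for medians. All 46 points are below 0, and all 10 filled points are in the 5 groups with a lone start site.

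The cluster on chromosome 6 was next compared with the copies elsewhere. Between 26 and 28 Mb of chromosome 6 lay 53 of the 69 genes, with 48 regions, a median log2 fold change of -0.41 and all 12 called regions. Of the 48, 40 passed the adjusted p-value. In their neighbours in signal, on average 7.74% of regions were called lower and 34.5% were lower by adjusted p-value alone. The first block of the cluster, from H1-1 to H4C8, had 29 regions with a median of -0.37 and 6 called lower, and the second block, from H2BC11 onwards, had 19 regions with a median of -0.49 and also 6 called lower. The second block was weaker, with a median mean signal of 371 against 570 in the first. In the neighbours in signal, on average 7.24% were called lower for the first and 8.5% for the second. A difference between the blocks was not tested.

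The 13 genes on chromosome 1 had 8 regions, with a median of -0.32, of which 6 passed the adjusted p-value and 0 were called. In the neighbours in signal of these 8 regions, on average 2% were called lower, so the absence of calls is not read as a difference between places. By adjusted p-value alone, 36.2% of those neighbours were lower. In the cluster on the long arm next to the centromere, 6 of 6 regions passed, against on average 38.2% of their neighbours, with a median of -0.41. This median counts the near-identical copies described below as separate regions, so it is not set against the value of chromosome 6. The 6 regions were among the strongest of all, with mean signals from 2076 to 4581. H2AC18/H3C14 (-0.47, SE 0.044) and H2AC19/H3C15 (-0.46, SE 0.044) were lowest, H4C14 and H4C15 both had a value of -0.41 (SE 0.054 and 0.055), and H2BC18/H3C13 was highest (-0.14, SE 0.055, adjusted p = 0.025). H2BC21, an H2B gene that is also known to make a polyadenylated mRNA, shares the strongest region with H2AC20 and H2AC21 (-0.22, SE 0.044, adjusted p = 4.9e-06), which also lies near the start of BOLA1. The regions of H4C14 and H4C15 and those of H2AC18/H3C14 and H2AC19/H3C15 are near-identical copies. From 96.9 to 100% of their 50-base words occur in the other copy, so reads from either copy cannot be told apart and each pair is a single measurement. The counts of regions in this report nevertheless hold each copy separately. All 4 copies passed the adjusted p-value and were in the lowest 10% of their neighbours. In 47 of the 58 regions under 10% of words were shared with another member region, and no further region exceeded 39.7%.

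The copies outside these clusters had smaller or less certain values. H2AC25/H2BC26, at the far end of chromosome 1, had a value of -0.15 (SE 0.068, adjusted p = 0.066) and a weak region beside it -0.02 (SE 0.25). H4C16, on chromosome 12, fell by 14.1% (log2 fold change -0.22, SE 0.061, adjusted p = 0.0013). The testis genes H2AC1 and H2BC1, on chromosome 6 but just outside the window, had a single weak region (mean signal 25.3) that holds no start site. Its log2 fold change of 0.68 was the highest of the set, but the SE was 0.39 and the adjusted p-value 0.155. The difference between the medians of chromosome 6 and chromosome 1 was -0.095, and it was 6.3e-05 when only regions with a start site inside were used. Both values count the near-identical copies on chromosome 1 as separate regions, so the smaller difference does not show that the places are alike.

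The fall was larger in weaker regions. The 6 regions with a mean signal under 50 had a median log2 fold change of -1.56 (median SE 0.48), the 18 between 50 and 400 had -0.46, the 15 between 400 and 1000 had -0.41 and the 19 above 1000 had -0.27 (median SE 0.055). In other promoters the medians for the same ranges were -0.19, -0.15, -0.12 and -0.11. Across the 46 regions with a start site, Spearman's rho between log2 fold change and mean signal was 0.57, and it was 0.36 across all 58, against 0.068 across all promoter regions. These correlations are across regions of the same libraries and carry no test. Mean signal and width also went together across the 58 regions (rho 0.91). The 15 regions from 400 to 1000 and 17 of the 19 above 1000 passed the adjusted p-value, so the fall was not limited to weak regions. Of other promoters in these ranges, 37.5% and 42.7% were lower by adjusted p-value.

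**Figure D3:**
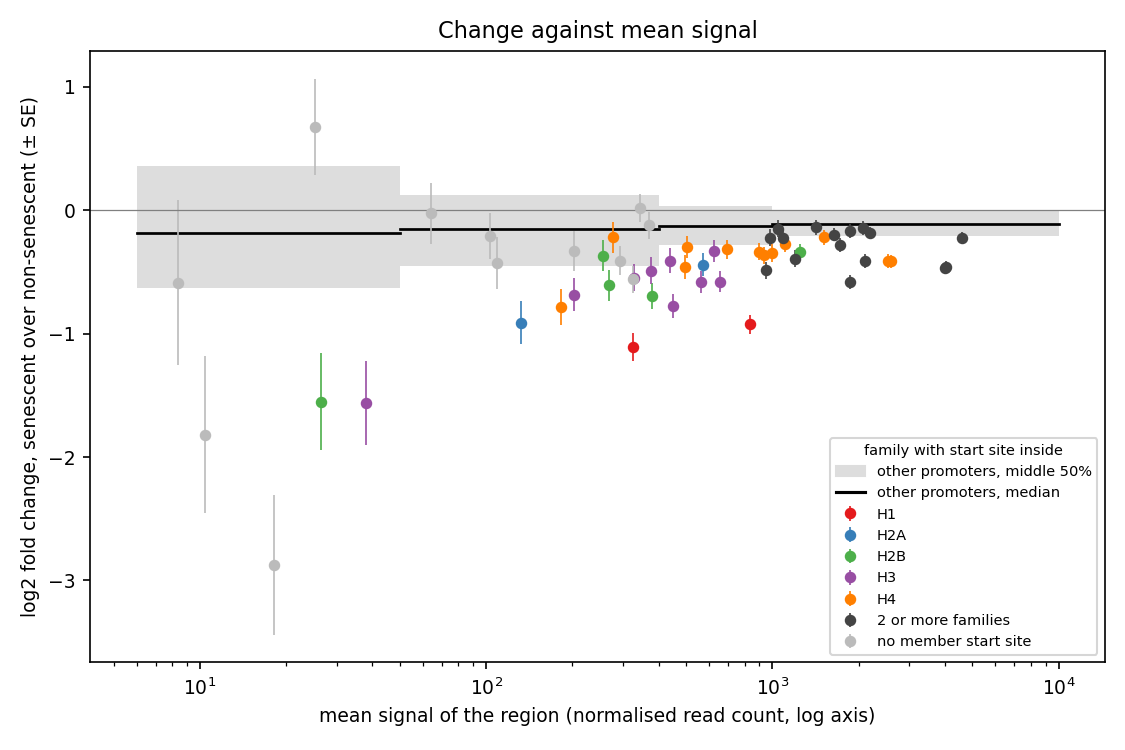
The log2 fold change (± SE) of the 58 regions against mean signal on a log axis, coloured by the family whose start site lies inside, over the median (black) and middle 50% (grey) of other promoter regions in 4 ranges of signal. Above a mean signal of 1000 all 19 regions lie between -0.58 and -0.14.

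The neighbouring genes were then considered. Within the window on chromosome 6, 17 promoter regions of other protein-coding genes, among them butyrophilin and zinc finger genes, had a median value of -0.15, with 5 lower and 1 higher by adjusted p-value, and 9 of the 17 lay below the median of their neighbours in signal. The 54 distal regions of the window had a median of -0.08, against 0.08 in all distal regions. The corresponding figures for histone gene regions of the window were 40 of 48 and 46 of 48. With the fold limit, 1 of the 17 other regions was called lower and 1 higher. On average 10.8% of their neighbours in signal were called lower. The one called lower was that of HFE, which lies between H1-2 and H4C3 (-1.14, SE 0.27, adjusted p = 9.2e-05), at a mean signal of 65.2. The rest of the 17 lie in stretches of the window without histone gene regions.

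Genes that act on the histone genes or their products had medians close to that of all promoters. Taking for each gene its strongest promoter region, the median of the 67 histone genes was -0.34, and 58 of them (86.6%) passed the adjusted p-value as lower, against -0.14 and 39.8% of 15504 protein-coding genes. The 67 genes have only 41 such regions between them, so genes that share a region repeat its value and are not separate measurements. None of the 67 was higher by adjusted p-value, against 8.23%. With the fold limit 9 histone genes in 7 regions were called lower (13.4%), against 7.01%. Among the 14 genes of histone gene transcription and the locus body the median was -0.11. The promoter of CCNE1, which encodes cyclin E1, was called higher (0.62, SE 0.14, adjusted p = 4.3e-05), that of its partner kinase gene CDK2 had the largest fall (-0.57, SE 0.11), and 7 were lower and 4 higher by adjusted p-value. NPAT had a value of -0.12 (SE 0.047, adjusted p = 0.034), which turned to 0.011 after centring on the median of promoter regions, and CASP8AP2, which encodes the locus body protein FLASH, -0.30 (SE 0.063).

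The remaining lists are read beside the same shares of all protein-coding genes, 39.8% lower and 8.23% higher by adjusted p-value. Of 13 genes for processing and decay of histone mRNA 4 were lower and 0 higher by adjusted p-value, with a median of -0.12. CPSF3, the endonuclease that cuts the histone pre-mRNA, had the lowest value (-0.28, SE 0.080), and SLBP the highest (0.11, SE 0.061, adjusted p = 0.13). Of 15 genes of histone chaperones and import 9 were lower and 0 higher, with a median of -0.14 and values from -0.38 at SSRP1, a subunit of FACT, to 0.08 at CHAF1A, a subunit of the chromatin assembly factor. Of 14 genes for histone variants and their chaperones, 3 were lower and 1 higher, with a median of -0.11. H3-3B, an H3.3 gene, had the lowest value (-0.33, SE 0.056) and MACROH2A1 the highest (0.15, SE 0.085, adjusted p = 0.14). None of the genes of these 3 lists reached the fold limit with an adjusted p-value under 0.05.

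**Figure D4:**
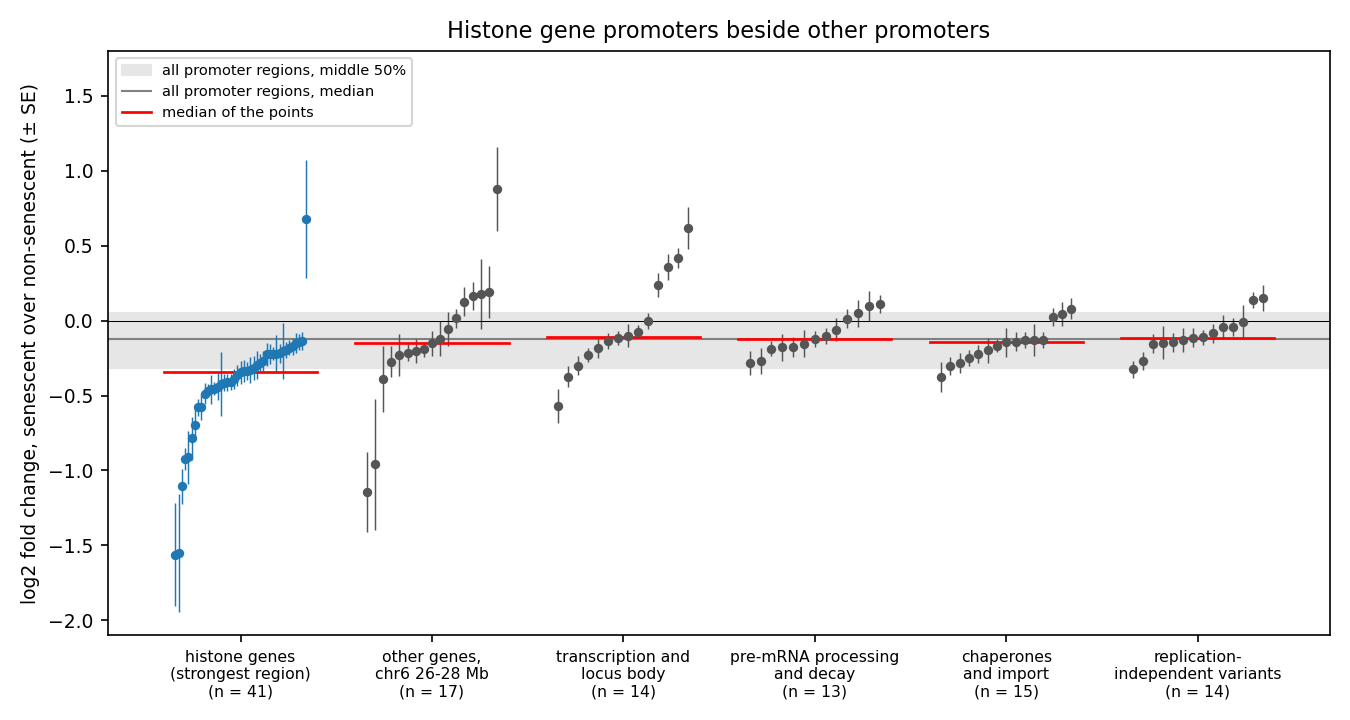
The log2 fold change (± SE) of the strongest promoter regions of histone genes (41 regions), of the 17 promoter regions of other genes in the chromosome 6 window and of the strongest promoter regions of 4 gene lists, with the median of each group in red and the median and middle 50% of all promoter regions in grey. The histone gene median of these regions is -0.35 and the others lie between -0.15 and -0.11.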

How the data were processed

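ATAC-seq was analysed from 3 senescent and 3 non-senescent libraries, grouped by the sample labels. According to the study's methods, the authors used Bowtie2 for alignment of trimmed reads (hg38), discarded duplicate and mitochondrial reads, corrected positions for the transposase offset, took the union of MACS2 peaks as regions and tested read counts in them with DESeq2. Versions are not given in the sources used here. The treatment of reads that match several places, which bears on multicopy genes, is not stated.

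The deposited table of the authors' comparison holds a mean signal (counts over size factors), a log2 fold change and SE, a Wald score, a p-value and an adjusted p-value. These comparison columns are the authors' and were used as deposited, since the table has no values per library and no test could be run anew. The score and both p-values were recomputed from fold change and SE and agreed. Depth per library cannot be read from the table, so precision is given as the SE, over 3 against 3 libraries. 0 columns of per-sample values were left unused.

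Regions were joined to GENCODE 44 with Python 3.11.15 and pandas 2.3.3. A call needed an adjusted p-value under 0.05, over all 108542 regions, and a fold change over 1.5. Neighbours in signal were 100 other promoter regions on each side, fewer at the ends of the signal range. Genes were named where called, at the extremes of each family in fold change or signal, outside the main clusters, or at the extremes of the other lists. NPAT, CASP8AP2 and further members were named after their values had been seen. Members, lists and tests were chosen with earlier results of these data known. Calling was tested on simulated data with a log2 fold change of 1.5, where 200 of 200 changed regions and 3 unchanged regions were called.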

Additional observations from a re-analysis of the deposited data

How the results depend on the processing

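No paired analysis was possible because single libraries have no values in the deposited data, and for the same reason leaving out a replicate and a refit with another tool were not run. Of 100 recomputed values of the main results, 79 stayed within the limits set, which were a ratio of 1.5 for counts and 0.090, the median SE of the regions, for medians. The counts of calls depended on the fold limit. Without it 47 regions and 58 genes were lower, and with a Wald test of whether the fold itself exceeds 1.5 only 3 regions and 2 genes were. The other settings gave 8 to 15 regions and 6 to 13 genes lower, and no setting gave a region called higher. After centring on the median of promoter regions (-0.13), the median was -0.28 for all regions, -0.28 for chromosome 6, -0.19 for chromosome 1 and 0.35 for the other places. After removal of the trend on mean signal these were -0.30, -0.31 and -0.22, without a marked move for the other places. The difference from promoters of like signal became -0.40, and that between chromosomes 6 and 1 -0.20, after removal of the trend on GC content.

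The comparison of places depended on the window. With windows of 1 kb, 0.5 kb or the start site itself chromosome 1 had a median of -0.41, and its difference from chromosome 6 was -0.0028 at 1 kb and reversed to 6.3e-05 at the start site. The near-identical copies on chromosome 1 are counted as separate regions in these medians too. The value of the other places, which rests on 2 regions, reversed to -0.22 at the start site or at a mean signal of at least 50, and to -0.036 when symbols with a letter after the number were added. Of the genes named by rule or afterwards, NPAT reversed to 0.011 after centring on promoters. H2BC6 lost its call there (-0.57) and after removal of the trend on mean signal (-0.58), and CCNE1 after removal of the trend on GC content (0.55). With the test of the fold itself, H1-2 and H1-3 alone among the strongest regions of histone genes stayed called. The markers INS, SST and HHEX also kept their calls. Regions with a mean signal under 50 have a median SE of 0.48, so their sizes are uncertain.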
